A study of Homo sapiens with 3 samples.

Results

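This account covers 36 genes of the lysosome, listed by symbol: 7 membrane proteins, 7 proteases, 10 glycosidases, 3 sulfatases, a class of 6 genes for lipid breakdown and sterol export that also holds the progranulin gene GRN, and the 3 transcription factor genes TFEB, TFE3 and TFEC. They were taken by name from a table of 26334 genes, and all 36 were listed. The RNA came from K562, a widely used human cell line of chronic myelogenous leukaemia origin that keeps erythroid features. The cells had been infected with the retroviral vector pMYs-IG, either empty or carrying EVI1-WT or EVI1+18, each EVI1 form with the 3xHA tag. EVI1 is a zinc finger transcription factor encoded by MECOM, and EVI1+18 is a form that the series ties to aberrant splicing. In each case the cells that carried the GFP marker of the vector were isolated by flow sorting on day 3 and cultured further, so the 3 groups share the vector backbone, the infection and the sort. Each construct has 1 library from 1 line, expression came from a retrovirus, and the empty vector cells already had MECOM RNA.

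Lysosomes are acidic compartments in which hydrolases break down proteins, glycans, sulfated sugars and lipids delivered by endocytosis and autophagy. Most soluble hydrolases are tagged with mannose 6-phosphate in the Golgi and sorted to the lysosome, where highly glycosylated membrane proteins such as LAMP1 and LAMP2 line the inner face. TFEB and TFE3 are basic helix-loop-helix factors that bind a short palindrome in promoters of many lysosomal genes, known as the CLEAR element, and are held in the cytoplasm while MTORC1 is active.

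The empty vector library held 17794423 counts, that of EVI1-WT 18439311 and that of EVI1+18 20772348. Ratios are of counts scaled with TMM, a normalization that assumes that most genes do not differ. Where a range in brackets follows a ratio, it is the exact 95% interval, which covers counting error only. With 1 library per construct the spread between cultures is unknown, so the ratios have no test and describe these libraries. Scaled levels are given as CPM, counts relative to a library of 1000000, and levels of different genes are compared in TPM, a measure that also corrects for transcript length. MECOM was at 43.9 CPM with empty vector, 56.9 with EVI1-WT and 97.3 with EVI1+18. Its ratio of EVI1+18 to EVI1-WT was 1.71 (1.59 to 1.84), so these libraries differed in MECOM RNA level as well as in the form of EVI1. The part of that level in the ratios below was not tested. All 9 erythroid markers of the K562 line were detected in each library, with a summed level of 11950 CPM with empty vector, 16989 with EVI1-WT and 16130 with EVI1+18. Most of it was from the globin genes HBG1 and HBG2. In both EVI1 libraries 8 of the 9 were above a ratio of 1 to empty vector. GATA1 was below, at 210, 189 and 204 CPM, and HBE1 was at 1821, 3525 and 1864 CPM. Of 10 monocyte and macrophage markers, CSF1R, CD163, MSR1, MARCO and FCGR1A had 0 counts in all 3 libraries, and the summed level of the list was 10.3 CPM with empty vector, 13.3 with EVI1-WT and 17.5 with EVI1+18, most of it LYZ. Of 10 packaging or stromal cell markers, PDGFRA, LUM, THY1 and CDH2 were at 0 throughout, and the sum ran from 51.1 to 65.7 CPM, most of it FN1. FN1 was highest with EVI1-WT, at 46.9, 64.7 and 49.1 CPM in empty vector, EVI1-WT and EVI1+18. COL1A2 was highest with empty vector, with 93, 2 and 20 counts in that order. The part of these marker levels in the ratios below was not tested.

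The promoters give a second view of the genes that does not come from the RNA. RefSeq windows on GRCh38.p14, from 250 bases before to 50 bases after a gene's start, matched 28 of the 36 genes, in 43 windows. The genes with no window in the table are MANBA, LAMP2, CTSB, NAGLU, PSAP, ARSA, HEXA and ASAH1. The hexamer CACGTG, the core of the CLEAR element, was searched on both strands, which for a palindrome is one search. It was found in 8 of the 43 windows, those of 8 genes, against 7.26% of all 35116 windows in the table. The longer palindrome TCACGTGA, which contains that hexamer, was in 4 windows, of CTSA, GAA, LAMP1 and MCOLN1, against 0.980% of all windows. The promoters below are printed because together they hold the hexamer in genes whose RNA behaved differently: MCOLN1 and LAMP1, which were close to level in the 3 libraries, CTSD, which was higher in both EVI1 libraries, and NEU1 and ARSB, which were lowest with EVI1-WT. Each is given 5′ to 3′ on the gene's strand with the hexamer in capitals.
MCOLN1, chr19:7522374-7522673, plus strand: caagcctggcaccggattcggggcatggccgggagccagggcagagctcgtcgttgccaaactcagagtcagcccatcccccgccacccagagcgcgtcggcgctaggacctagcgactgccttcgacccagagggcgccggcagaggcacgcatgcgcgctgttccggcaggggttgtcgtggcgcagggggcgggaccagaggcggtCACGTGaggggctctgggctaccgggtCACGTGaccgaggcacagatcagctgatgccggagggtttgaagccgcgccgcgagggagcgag
LAMP1, chr13:113296989-113297288, plus strand: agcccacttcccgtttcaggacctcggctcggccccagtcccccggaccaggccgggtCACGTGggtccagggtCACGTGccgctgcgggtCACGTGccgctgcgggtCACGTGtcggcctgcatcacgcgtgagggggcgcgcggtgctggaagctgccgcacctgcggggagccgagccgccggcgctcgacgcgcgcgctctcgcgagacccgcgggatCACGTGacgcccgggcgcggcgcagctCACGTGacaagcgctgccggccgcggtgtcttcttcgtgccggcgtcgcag
CTSD, chr11:1763878-1764177, minus strand: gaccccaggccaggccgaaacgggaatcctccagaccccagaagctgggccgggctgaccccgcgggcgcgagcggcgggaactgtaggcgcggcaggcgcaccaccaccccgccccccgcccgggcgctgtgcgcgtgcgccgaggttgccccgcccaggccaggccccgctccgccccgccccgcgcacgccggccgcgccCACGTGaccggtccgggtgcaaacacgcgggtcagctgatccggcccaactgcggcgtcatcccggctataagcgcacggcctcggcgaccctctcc
NEU1, chr6:31862772-31863071, minus strand: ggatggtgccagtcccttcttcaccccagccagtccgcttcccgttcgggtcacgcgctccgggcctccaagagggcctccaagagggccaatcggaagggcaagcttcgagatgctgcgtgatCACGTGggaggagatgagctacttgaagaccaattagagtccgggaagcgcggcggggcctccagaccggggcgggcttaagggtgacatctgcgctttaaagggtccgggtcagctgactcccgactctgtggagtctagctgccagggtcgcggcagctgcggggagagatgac
ARSB, chr5:78985909-78986208, minus strand: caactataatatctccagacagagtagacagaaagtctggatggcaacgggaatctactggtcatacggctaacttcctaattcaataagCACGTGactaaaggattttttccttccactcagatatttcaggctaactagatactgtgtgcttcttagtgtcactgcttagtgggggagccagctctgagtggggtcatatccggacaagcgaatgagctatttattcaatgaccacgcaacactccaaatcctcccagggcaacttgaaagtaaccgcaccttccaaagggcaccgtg

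LAMP1 held 6 copies of the hexamer, the farthest beginning 192 bases before the start and the nearest 1 base before it. MCOLN1 held 2, beginning 41 and 14 bases before the start, and the nearer reads gtCACGTGac with its flanking bases. CTSD held 1 at 47 bases, read as ccCACGTGac. NEU1 held 1 at 126 bases, read as atCACGTGgg. The ARSB copy, agCACGTGac, began 160 bases before the more upstream of the gene's 2 listed starts. Among the other genes, CD63 held gcCACGTGgc, GAA held gtCACGTGac at 76 and at 31 bases, and CTSA held gtCACGTGgc and ttCACGTGac at 42 and 25 bases. A match describes letters in a window and does not show that a factor binds there.

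Lysosomal genes spanned a wide range of levels in K562, and a few of them supplied most of the RNA. The summed level of the 36 was 2151 TPM with empty vector, 2253 with EVI1-WT and 2251 with EVI1+18. CD63, a tetraspanin of late endosomes and lysosomes, was the most abundant, at 464 TPM with empty vector, 490 with EVI1-WT and 485 with EVI1+18. PSAP, the precursor of the saposins that help enzymes reach sphingolipids, followed at 408, 474 and 468 TPM. CD63 and PSAP made up 41.9% of the summed mean level, and with the cathepsin genes CTSZ, CTSC and CTSL 61.8%. In means over the libraries, CTSZ was at 167.0 TPM, CTSC at 163.1 and CTSL at 110.5. CTSZ and CTSC changed places between libraries, so their order is not fixed. By contrast 5 genes had a mean under 50 counts over the 3 libraries: GAA, IDUA, LIPA, TFEB and TFEC. TFEC, a relative of TFEB, had 0 counts with empty vector, 3 with EVI1-WT and 0 with EVI1+18, which is at or under the floor of 3 counts used here as the limit of detection, so no ratio is given. LIPA, the acid lipase of lysosomes, had 4, 1 and 1 counts.

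The ratios below describe the 31 genes whose counts averaged 50 or more over the libraries, beside all 10406 genes that meet the same minimum. A gene counts as higher or lower past a ratio of 1.5-fold. A looser rule, at least 25% higher or at least 20% lower, is given as well because few of these genes passed the first. With EVI1-WT against empty vector, 0 of the 31 were at least 1.5-fold higher, where 2.37% of all genes were. At least 1.5-fold lower were 3 of 31, or 9.68%, against 3.95% of all genes. With EVI1+18 against the same empty vector library, 0 were past 1.5-fold higher against 3.3% of all genes, and 0 lower against 2.23%. With EVI1+18 against EVI1-WT, 4 were at least 1.5-fold higher, or 12.9%, against 3.57% of all genes, and 0 lower against 0.846%. The 3 comparisons share libraries, so a deviation of the EVI1-WT library would appear in both comparisons that use it, in opposite directions. A deviation of the empty vector library would likewise appear in both ratios to it, in the same direction, so these ratios are not independent.

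By the looser rule, 4 genes were higher and 7 lower with EVI1-WT than with empty vector, or 12.9% and 22.6%, against 7.93% and 9.63% of all genes. With EVI1+18 against empty vector 7 were higher and 1 lower, or 22.6% and 3.23%, against 10.5% and 7.4%. With EVI1+18 against EVI1-WT 8 were higher and 1 lower, or 25.8% and 3.23%, against 10.4% and 4.93%. The looser rule was applied to scaled counts. In TPM, the ratios of EVI1+18 to empty vector were 1.22 for CTSZ, 1.18 for CTSD and 1.19 for GRN, no longer past it. CTSB, MAN2B1, ARSA and ASAH1, at 1.29 to 1.34, remained past it. ARSB, at 0.798, passed it as lower. The share of all genes past the looser rule was not calculated in TPM. The median log2 ratio of the 31 genes was 0.06 for EVI1-WT against empty vector, 0.15 for EVI1+18 against empty vector and 0.08 for EVI1+18 against EVI1-WT, where the median of all genes was 0.01, 0.00 and -0.01. With the deposited TPM values the first of these medians turned to -0.03, while that of all genes was -0.07. TPM lowered the median of all genes in the second comparison by 0.10, and the 31 genes then had a median of 0.04, which is 0.14 above all genes, as against 0.15 with scaled counts.

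**Figure D1:**
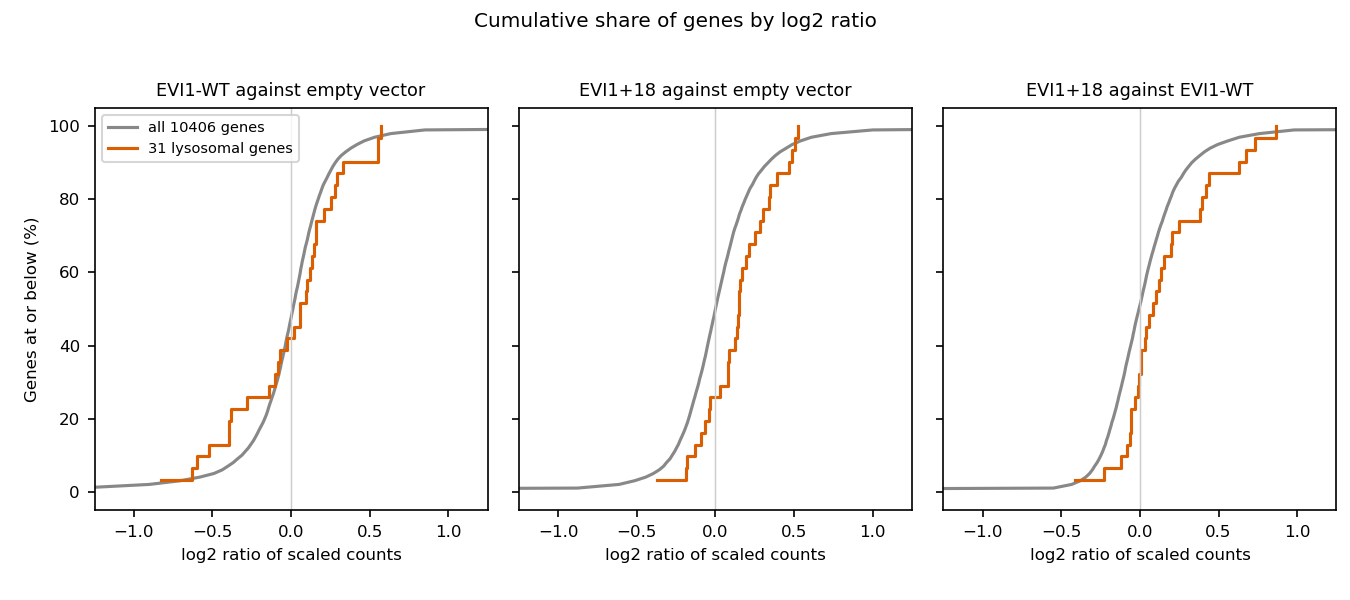
Cumulative share of genes (y axis, percent) at or below each log2 ratio of scaled counts (x axis) for the 31 lysosomal genes and for all 10406 genes, one panel per comparison. The lysosomal line lies to the right of the line of all genes through most of the middle and right panels, with medians of 0.15 and 0.08, and crosses it in the left panel, where 7 genes are at least 20% lower.

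Among the membrane proteins, CD68 was the one gene that stood out, and it did so in the EVI1-WT library. CD68, a heavily glycosylated protein best known from macrophage lysosomes, was at 32.6 CPM with empty vector, 47.9 with EVI1-WT and 35.9 with EVI1+18. EVI1-WT was thus high and the others close together. The ratio of EVI1-WT to empty vector was 1.47 (1.32 to 1.63), that of EVI1+18 to empty vector 1.10 (0.985 to 1.23). CD68 is also a macrophage marker. Of the 10 monocyte and macrophage markers, 4 were detected with empty vector, 4 with EVI1-WT and 5 with EVI1+18. Their summed level was 10.3, 13.3 and 17.5 CPM in that order, so it was highest with EVI1+18, where CD68 was close to its empty vector level. Within the list AIF1 had 9 counts with empty vector, 44 with EVI1-WT and 45 with EVI1+18, and LYZ 162, 185 and 288. The part of these markers in the CD68 ratio was not tested.

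LAMP1, the major glycoprotein of the lysosomal membrane, was at 79.5, 82.6 and 76.0 CPM in empty vector, EVI1-WT and EVI1+18. LAMP2, which also acts as a receptor in chaperone-mediated autophagy, was at 65.8, 62.7 and 64.2 CPM. MCOLN1, a calcium channel of the lysosome whose promoter is printed above, was at 11.6, 11.7 and 11.3 CPM. For these 3 genes the ratios to empty vector lay between 0.952 and 1.04 and every interval included 1. Between the EVI1 libraries LAMP1 was at 0.920 (0.857 to 0.988), an interval below 1. CD63 was at a ratio of 1.11 to empty vector in either EVI1 library (1.06 to 1.16 for EVI1-WT, 1.07 to 1.16 for EVI1+18). SCARB2, the receptor that carries glucocerebrosidase to lysosomes, was at 1.12 (1.01 to 1.23) and 1.11 (1.003 to 1.22). NPC1, which exports cholesterol from lysosomes, was at 0.946 (0.866 to 1.03) with EVI1-WT and 1.09 (1.004 to 1.18) with EVI1+18. MCOLN1 shares exon sequence with PNPLA6 on the same strand, and its ratio is uncertain for that reason. PNPLA6 had 572, 585 and 780 counts, more than MCOLN1 in each library. The sum of both was at 1.01 (0.915 to 1.12) for EVI1-WT and 1.13 (1.03 to 1.24) for EVI1+18 against empty vector, the latter interval lying above 1.

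None of the 7 proteases was past 1.5-fold in any comparison. Against empty vector, 6 of 7 were above a ratio of 1 with EVI1-WT and 6 with EVI1+18, where 5472 and 5197 of all 10406 genes were. By the looser rule 2 of 7 were higher and 0 lower with EVI1-WT, where 7.93% and 9.63% of all genes were. With EVI1+18 3 of 7 were higher and 1 lower, where 10.5% and 7.4% of all genes were. In TPM, CTSB stayed past the looser rule with EVI1+18, at 1.32, while CTSZ, at 1.22, and CTSD, at 1.18, did not. With EVI1-WT, CTSZ was at 1.19 in TPM, also no longer past it. With 7 genes, a count of 0 or 1 cannot be told apart from the share of all genes. CTSB, a cysteine protease, was at 111.5 CPM with empty vector, 165.7 with EVI1-WT and 158.5 with EVI1+18, so that the empty vector library was the low one. Its ratio was 1.49 (1.40 to 1.57) for EVI1-WT and 1.42 (1.34 to 1.504) for EVI1+18, just under the 1.5-fold rule. CTSZ, a carboxypeptidase, was at 109.4, 137.8 and 143.3 CPM, a ratio of 1.26 (1.19 to 1.34) for EVI1-WT and 1.31 (1.24 to 1.39) for EVI1+18. CTSD, the main aspartic protease, was at 82.8, 98.8 and 104.7 CPM, with ratios of 1.19 (1.11 to 1.28) and 1.26 (1.18 to 1.35). In CTSB, CTSZ and CTSD the EVI1 libraries lay close to each other, and the ratios of EVI1+18 to EVI1-WT were 0.957, 1.04 and 1.06.

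CTSC, the dipeptidyl peptidase that activates serine proteases of granules, ran the other way. It was at 219.5 CPM with empty vector, 199.2 with EVI1-WT and 169.8 with EVI1+18, which puts EVI1+18 lowest. The ratio was 0.907 (0.867 to 0.949) for EVI1-WT and 0.773 (0.739 to 0.809) for EVI1+18. It was the 1 gene of the 31 at least 20% lower with EVI1+18 than with empty vector. TPP1, a tripeptidyl peptidase, was at ratios of 1.16 and 1.11 in the EVI1-WT and EVI1+18 libraries, CTSL, another cysteine protease, at 1.07 and 1.06, and CTSA, which protects sialidase and beta-galactosidase, at 1.04 and 1.16. The intervals of CTSL in both comparisons and of CTSA with EVI1-WT included 1. CTSA has exons that overlap PLTP and NEURL2 on the other strand, and the use of strand in counting is not given, so its value is uncertain.

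Glycosidases split by gene. NEU1, NAGLU and MANBA were lower with EVI1-WT, while GLA, HEXA and GLB1 were slightly higher. MANBA, the beta-mannosidase, was at 14.1 CPM with empty vector, 9.15 with EVI1-WT and 12.4 with EVI1+18, 1.54-fold lower with EVI1-WT (1.27 to 1.89) on 255 and 167 counts. NAGLU, which acts on heparan sulfate, was at 13.5, 10.3 and 13.8 CPM, 1.31-fold lower with EVI1-WT (1.08 to 1.60). NEU1, the lysosomal sialidase whose promoter is printed above, was at 64.2, 49.3 and 56.6 CPM, 1.30-fold lower with EVI1-WT (1.19 to 1.42). In all 3 genes EVI1-WT was the lowest library.

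MAN2B1, the alpha-mannosidase, was highest with EVI1+18, at 27.4, 29.4 and 38.3 CPM, a ratio of 1.40 (1.2501 to 1.57) to empty vector and 1.30 (1.17 to 1.46) to EVI1-WT. GLA, the alpha-galactosidase, was at a ratio of 1.21 (1.10 to 1.34) with EVI1-WT and 1.15 (1.04 to 1.26) with EVI1+18. The beta-galactosidase gene GLB1 was at 1.09 and 1.19, and HEXA, a subunit of beta-hexosaminidase, at 1.10 and 1.12. GLB1 shares exon sequence with TMPPE and HEXA overlaps HEXA-AS1, so both are uncertain, although HEXA-AS1 had at most 4 counts. TMPPE had 123, 122 and 70 counts. The sum of GLB1 and TMPPE was at 1.13 (1.06 to 1.21) for EVI1+18 against empty vector. Between the EVI1 libraries the sum was at 1.05 (0.981 to 1.13), an interval that includes 1, against 1.10 (1.02 to 1.18) for GLB1 alone.

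GUSB, the beta-glucuronidase often used as a reference gene, was at 68.6 CPM with empty vector, 63.9 with EVI1-WT and 75.9 with EVI1+18. Its reads can be exchanged with pseudogene copies, and summed with 8 of them the ratio of EVI1+18 to EVI1-WT was 1.16 (1.09 to 1.24), against 1.19 for GUSB alone. GAA, the acid alpha-glucosidase, had 25, 21 and 29 counts, too few to tell its levels apart. IDUA, the alpha-iduronidase, had 9, 14 and 26 counts, a ratio of EVI1+18 to empty vector of 2.52 with a wide interval (1.14 to 6.11). IDUA overlaps SLC26A1 on the other strand, and their sum was at 1.17 (0.798 to 1.72).

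The arylsulfatase genes were low in abundance and lowest with EVI1-WT. ARSB, which removes sulfate from dermatan and chondroitin sulfate and whose promoter is printed above, had 91 counts in the empty vector library (5.04 CPM), 52 in that of EVI1-WT (2.85 CPM) and 98 in that of EVI1+18 (4.74 CPM). The ratio of EVI1-WT to empty vector was 0.565 (0.394 to 0.803), and EVI1+18 exceeded EVI1-WT 1.66-fold (1.18 to 2.38). ARSA, which acts on sulfatide, had 82 counts (4.54 CPM), 63 (3.45 CPM) and 130 (6.28 CPM). EVI1+18 exceeded EVI1-WT 1.82-fold (1.34 to 2.50), the highest ratio among the 31 genes in that comparison, while the interval of EVI1-WT against empty vector, 0.538 to 1.07, included 1.

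IDS, the iduronate sulfatase, was more abundant, at 21.3, 23.8 and 25.9 CPM. Its ratio to empty vector was 1.12 (0.972 to 1.29) in the EVI1-WT library and 1.22 (1.06 to 1.39) in the EVI1+18 library, the latter interval lying above 1. The mean transcript length that the files give for IDS was 4065 bases with empty vector, 4696 with EVI1-WT and 4501 with EVI1+18, and for ARSB 5089, 4898 and 5561 bases. They were the only ones of the 31 genes whose length differed by more than 10% between libraries, which held for 1.24% of all genes. In TPM, which divides by that length, IDS was at 9.28, 8.41 and 9.4. Its ratio to empty vector was then 0.906 with EVI1-WT and 1.01 with EVI1+18, both below the intervals above, so the higher level was not seen in TPM. ARSB was at 1.73, 0.960 and 1.38 TPM, and the ratio of EVI1+18 to EVI1-WT was 1.44, no longer past 1.5-fold.

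In the lipid class, ASAH1 and PSAP were higher in both EVI1 libraries, while NPC2, SMPD1 and GRN were lowest with EVI1-WT. ASAH1, the acid ceramidase, was at 44.8 CPM with empty vector, 65.8 with EVI1-WT and 64.3 with EVI1+18, ratios of 1.47 (1.34 to 1.61) and 1.44 (1.32 to 1.57). PSAP was at 630.4, 773.6 and 776.3 CPM, ratios of 1.23 (1.20 to 1.26) and 1.23 (1.20 to 1.26). For ASAH1 and PSAP the empty vector library was the low one and the EVI1 libraries differed from each other by ratios of 0.978 and 1.0 only.

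NPC2, the soluble protein that hands cholesterol to NPC1, was at 9.03 CPM with empty vector, 5.97 with EVI1-WT and 9.52 with EVI1+18. It was 1.51-fold lower with EVI1-WT (1.18 to 1.95), and EVI1+18 exceeded EVI1-WT 1.60-fold (1.26 to 2.03). NPC2 exons overlap ISCA2 on the other strand, which makes the value uncertain. ISCA2 itself had 203, 188 and 236 counts, and the sum of both was at 0.802 (0.686 to 0.937) for EVI1-WT against empty vector and at 1.29 (1.11 to 1.497) for EVI1+18 against EVI1-WT. The partner of NPC2 in the membrane, NPC1, was at a ratio of 1.15 (1.06 to 1.254) between the EVI1 libraries.

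SMPD1, the acid sphingomyelinase, was at 10.3, 7.18 and 9.43 CPM, 1.44-fold lower with EVI1-WT (1.14 to 1.81). GRN, which encodes progranulin, a secreted and lysosomal glycoprotein that is cut into granulins, was at 51.3 CPM with empty vector, 42.2 with EVI1-WT and 65.3 with EVI1+18. EVI1-WT was the low library and EVI1+18 the high one, with a ratio of 0.823 (0.747 to 0.906) for EVI1-WT, 1.27 (1.17 to 1.39) for EVI1+18, and 1.55 (1.42 to 1.69) for EVI1+18 against EVI1-WT. On 770 to 1351 counts, GRN was the most abundant of the 4 genes past 1.5-fold in that last comparison, the others being NPC2, ARSA and ARSB.

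Of the transcription factors that switch on lysosomal genes, TFE3 supplied most of the RNA and showed no difference beyond counting error. TFE3 was at 50.76, 49.95 and 53.71 CPM, and against empty vector the EVI1-WT library was at 0.984 (0.897 to 1.08) and the EVI1+18 library at 1.06 (0.969 to 1.16), both intervals including 1. TFEB had 44, 29 and 35 counts. Its ratio was 0.652 (0.393 to 1.06) for EVI1-WT and 0.694 (0.432 to 1.11) for EVI1+18, and both intervals included 1, so a difference was not detectable at this depth. In TPM, TFE3 was at 26.5 with empty vector and TFEB at 2.03. Control of these factors by their place in the cell does not show in RNA counts.

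By library, 16 of the 31 genes had their lowest scaled level with empty vector, 12 with EVI1-WT and 3 with EVI1+18, where 34.6%, 30.8% and 34.6% of all genes did. Highest were 6 with empty vector, 9 with EVI1-WT and 16 with EVI1+18, where 32.1%, 34.5% and 33.4% of all genes were. The 12 that were lowest with EVI1-WT are LAMP2, NPC1, GUSB, MANBA, NAGLU, NEU1, ARSA, ARSB, SMPD1, NPC2, GRN and TFE3. CTSC, LAMP1 and MCOLN1 were lowest with EVI1+18.

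By the median ratio, the less abundant genes separated the EVI1 libraries more than the abundant ones, while by direction both groups had more genes above a ratio of 1 than below. When the 31 genes are divided at their median of 1076 mean counts, the 15 less abundant genes had a median log2 ratio of EVI1+18 to EVI1-WT of 0.38, with 11 above a ratio of 1, and the 16 more abundant genes one of 0.02, with 10 above 1. Among all genes on either side of the same count the medians were 0.02 and -0.03. Below a ratio of 1 were 46.5% and 58.2% of those genes, against 4 of the 15 and 6 of the 16. For EVI1-WT against empty vector, the less abundant 15 had a median of -0.02 and the more abundant 16 one of 0.13. For EVI1+18 against empty vector the medians were 0.14 and 0.15. The division was made after the values were seen.

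Genes that held CACGTG in a promoter window were found on both sides of a ratio of 1, among those that have a window. For the 7 that met the count minimum, the ratio of EVI1-WT to empty vector was 0.565 for ARSB, 0.768 for NEU1, 1.01 for MCOLN1, 1.04 for LAMP1, 1.04 for CTSA, 1.11 for CD63 and 1.19 for CTSD. With EVI1+18 it was 0.940 for ARSB, 0.881 for NEU1, 0.973 for MCOLN1, 0.956 for LAMP1, 1.16 for CTSA, 1.11 for CD63 and 1.26 for CTSD. MCOLN1, with the site gtCACGTGac printed above, and LAMP1, with 6 copies of the hexamer, were among those closest to 1. The MCOLN1 ratios are uncertain because of the exon sequence shared with PNPLA6.

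The wider lysosomal system was described with 6 lists of 118 other genes, of which 111 averaged 50 counts or more. Past 1.5-fold in the comparison of EVI1-WT with empty vector were 2 higher and 2 lower of the 111, or 1.80% and 1.80%, against 2.37% and 3.95% of all genes. In that of EVI1+18 with empty vector there were 1 and 2, or 0.901% and 1.80%, against 3.3% and 2.23%. In that of EVI1+18 with EVI1-WT there were 2 and 0, or 1.80% and 0%, against 3.57% and 0.846%. The V-ATPase, the proton pump that acidifies lysosomes, had 0 of 16 genes past 1.5-fold in any comparison, with medians of -0.03, -0.03 and 0.01 in that order. The list of enzyme delivery, with the mannose 6-phosphate receptors and the tethering complexes, also had 0 of 18 in each, with medians of -0.01, -0.04 and -0.04.

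Other hydrolases, a list of 31 with 26 described, also had 0 past 1.5-fold in each comparison, where 0.846% to 3.95% of all genes were in either direction. Their medians were -0.03 for EVI1-WT and 0.12 for EVI1+18 against empty vector, and 0.11 for EVI1+18 against EVI1-WT. In the last, 6 of 26, or 23.1%, were at least 25% higher and 0 at least 20% lower, against 10.4% and 4.93% of all genes. Among 20 described genes for other membrane proteins and transporters, LAPTM5, a lysosomal protein of blood cells, was at 14.4, 21.9 and 25.5 CPM, with ratios to empty vector of 1.52 in the EVI1-WT library (1.30 to 1.78) and 1.77 in the EVI1+18 library (1.52 to 2.06). SLC17A5, which exports sialic acid from lysosomes, stood at 1.66 with EVI1-WT (1.31 to 2.12) and 1.44 with EVI1+18 (1.14 to 1.84). LITAF, a membrane protein of late endosomes, was 1.68-fold lower with EVI1-WT (1.32 to 2.15) and at 0.968 with EVI1+18 (0.789 to 1.19). Between the EVI1 libraries LITAF was 1.63-fold (1.29 to 2.07) and the transporter gene ABCA2 1.56-fold (1.36 to 1.79) higher with EVI1+18.

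In the list for TFEB control, with genes of the Rag GTPases and their partners, 0 of 15 described genes passed 1.5-fold with EVI1-WT, and RRAGB, a Rag GTPase, was 1.67-fold lower with EVI1+18 (1.26 to 2.22). Among 16 autophagy genes, WIPI1, which binds phosphoinositides at forming autophagosomes, had 109 counts with empty vector, 48 with EVI1-WT and 68 with EVI1+18. It was 2.30-fold lower with EVI1-WT (1.62 to 3.30) and 1.84-fold lower with EVI1+18 (1.34 to 2.53). The medians of the autophagy list were 0.04, 0.08 and 0.05, so WIPI1 stood alone in it.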

How the data were processed

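Per the labels' protocols, RNA was purified on RNeasy columns and made into TruSeq libraries (kit version 2). Per the file headers, the authors deposited for each gene an expected count, an estimate that shares ambiguous reads between transcripts, with TPM, FPKM, length and effective length over RefSeq transcripts. The deposited TPM, scaled by the authors to 1000000 per library, served for levels between genes and as an alternative, and the deposited FPKM values were not used. The build was hg19, per the submitters' processing notes, and the sources used here name no aligner or counting tool and do not say whether strand was used. The genes in the lists and the rules were chosen with earlier results of these data known.

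Expected counts were rounded and scaled over all 26334 genes with TMM in edgeR 4.0.16. A ratio has an exact 95% Clopper-Pearson interval conditional on the sum of its counts, from scipy 1.17.1. The minimum was a mean of 50 counts, the fold 1.5, and the floor 3 counts per library. The floor replaced a count of 0 where genes past a fold were counted, genes at or under it in both libraries were left out there, and no single ratio is given against a count of 0. Intervals and floor cover counting error only, since PCR copies cannot be told from separate molecules. The calculation was tested on simulated data. Alternatives were DESeq2 1.42.0 size factors, total counts, TPM, a minimum of 10 or none, and 2 other folds, one looser (25% higher or 20% lower) and one of 2. Overlapping exons were taken from GENCODE 29, which is on another build, for names only, and promoter windows from RefSeq. Every member is accounted for, and counts or levels with intervals are given for those past 1.5-fold, the extremes of each role class and the transcription factors. Other members with full values were chosen after their values were seen. Of each related list up to 3 genes past 1.5-fold are named.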

Additional observations from a re-analysis of the deposited data

How the results depend on the processing

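DESeq2 size factors and total counts left all 93 ratios of the 31 genes within their intervals, and TPM left 79 within and moved 14. The moved ratios were all to empty vector and all lower in TPM. They were CD63, PSAP, CTSC and IDS in both EVI1 libraries, and LAMP1, CTSB, CTSD, CTSL, CTSZ and TPP1 with EVI1+18. In TPM with EVI1+18, CTSB was at 1.32, CTSZ at 1.22, CTSD at 1.18, PSAP at 1.14, CD63 at 1.05 and TPP1 at 1.03. Counts past 1.5-fold were the same with DESeq2 size factors and total counts, while with TPM 4 genes, SMPD1 added, were lower with EVI1-WT than with empty vector, and 3, ARSB left out, in EVI1+18 over EVI1-WT. For EVI1-WT against empty vector, genes past the fold numbered 1 higher with a minimum of 10 counts, 1 higher and 5 lower with none, 4 higher and 7 lower under the looser rule, and 0 lower at 2-fold. For EVI1+18 against empty vector there was 1 higher with a minimum of 10, 1 higher and 1 lower with none, and 7 higher and 1 lower under the looser rule. For EVI1+18 against EVI1-WT there were 8 higher and 1 lower under the looser rule and 0 higher at 2-fold. These follow from the looser or stricter rule, and genes with few counts such as IDUA, TFEB and LIPA enter with the lower minimum. Without CD63 the summed TPM was 1687 with empty vector, 1764 with EVI1-WT and 1766 with EVI1+18, and in counts relative to a library of 1000000 the sum was 2475, 2694 and 2760. Sums with overlapping genes, chosen after seeing the data, left the 15 ratios they touch within their intervals, as did sums with pseudogene copies for 6, although NPC2 with ISCA2 was no longer past 1.5-fold. No paired analysis was possible because each construct has 1 library. For the same reason no library could be left out. Depth limits the genes under 100 mean counts, ARSA and ARSB among them.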
